A study of Mus musculus with 8 samples.

Results

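The enzymes of glycolysis and of the pentose phosphate pathway were followed across 8 mouse pancreatic tumours as a set of 35 named genes. The members are the rows of the deposited count table with those 35 gene symbols, and all 35 were found among its 24537 genes. They run from the hexokinases to lactate dehydrogenase, with the kinases and the E1 subunits of pyruvate dehydrogenase at the mitochondrial entry and 7 enzymes of the pentose phosphate pathway beside them. All 35 passed the filter on low counts that left 14728 genes for testing.

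RNA came from EpCAM-positive cells sorted by flow cytometry, without culture, from tumours dissociated mouse by mouse at 44 to 49 days of age in FVB/NJ mice. Every animal, controls included, carried among its alleles Trp53f/f (a floxed tumour suppressor gene), Rosa26LSL-Luc (a luciferase reporter) and Pdx1-Cre, whose promoter drives Cre recombinase in the pancreatic lineage. The 4 tumours labelled KO were Lifr f/f, with both copies of the leukaemia inhibitory factor receptor gene floxed, and are written KO1 to KO4. The 4 labelled WT were 2 Lifr f/+ tumours (WT1 and WT2) and 2 Lifr +/+ tumours (WT3 and WT4). A f/+ tumour can lose 1 Lifr allele, so the controls are not of 1 genotype. The tumours are separate mice, and their numbers only follow the listed order. Counts per tumour summed to between 14938875 and 22698340, and the 35 genes took 0.361% to 0.517% of them.

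Lifr itself, counted over all exons of 1 transcript, was higher in the tumours labelled KO (183 ± 34.5 CPM, SD, n = 4) than in those labelled WT (97.8 ± 22.2 CPM, n = 4; log2 fold change 0.90 ± 0.19 SE, edgeR adjusted p = 0.0121). The labels do not say which exons are floxed, so this value does not test the deletion, but it runs against a lower Lifr level under the KO label. Each direction below is therefore for the tumours labelled KO against those labelled WT. CPM here means counts per 1000000 after TMM scaling, which sets libraries to a common scale. The labelled groups also differed in markers of other cells. Macrophage markers summed to between 2.54% and 3.11% of all counts where the label was KO and between 1.18% and 1.96% where it was WT, and 13 of its 16 genes rose and 0 fell (none of the 16 was at 0 in all tumours). Epithelial markers summed to between 0.434% and 0.599% against 0.870% and 1.22%, and 18 of its 25 genes fell and 0 rose. Epcam, the antigen of the sort, was present at 421 ± 57.7 against 775 ± 96.5 CPM. Acinar RNA varied within both labels, from 0.180% to 3.85% and from 0.0456% to 0.975% of counts, and 0 of its 12 tested genes passed at a median log2 fold change of 2.69. Fibroblast markers took 0.0767% to 0.409% and 0.0444% to 0.164% of counts, and 2 of 12 rose and 0 fell (median 1.13). The part of these lists in the results on the enzymes was not tested.

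Glycolysis splits glucose into pyruvate in the cytosol and yields ATP and NADH. Lactate dehydrogenase turns pyruvate into lactate, while pyruvate dehydrogenase, held off by its kinases, sends it to the mitochondrial citric acid cycle. The pentose phosphate pathway branches off at glucose 6-phosphate, with an oxidative arm that makes NADPH and a non-oxidative arm that links ribose phosphate back to glycolysis.

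Levels between genes were compared per transcript length, on the deposited FPKM. Aldoa, the main aldolase, had the highest mean over the 8 tumours at 209 FPKM, followed by Ldha at 137, Pkm (pyruvate kinase) at 109, Tpi1 (triose phosphate isomerase) at 82.9, Taldo1 (transaldolase) at 77.7, Tkt (transketolase) at 72.5, Pgd (phosphogluconate dehydrogenase) at 60.8 and Gpi1 (glucose phosphate isomerase) at 48.8. Those 8 genes made up 72.7% of the summed FPKM of the 35. Aldoa lay above 99.5% of all genes in the table. At the other end stood Eno2, the neuronal enolase, at 0.570 FPKM, Gapdh, the glyceraldehyde phosphate dehydrogenase, at 0.613, and Pfkfb1, the liver form of the PFKFB enzymes, at 0.917. Gapdh, Eno1 and Pgk1 share long stretches with other genes, as described below, so their FPKM, and sums that include them, are uncertain.

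**Figure D1:**
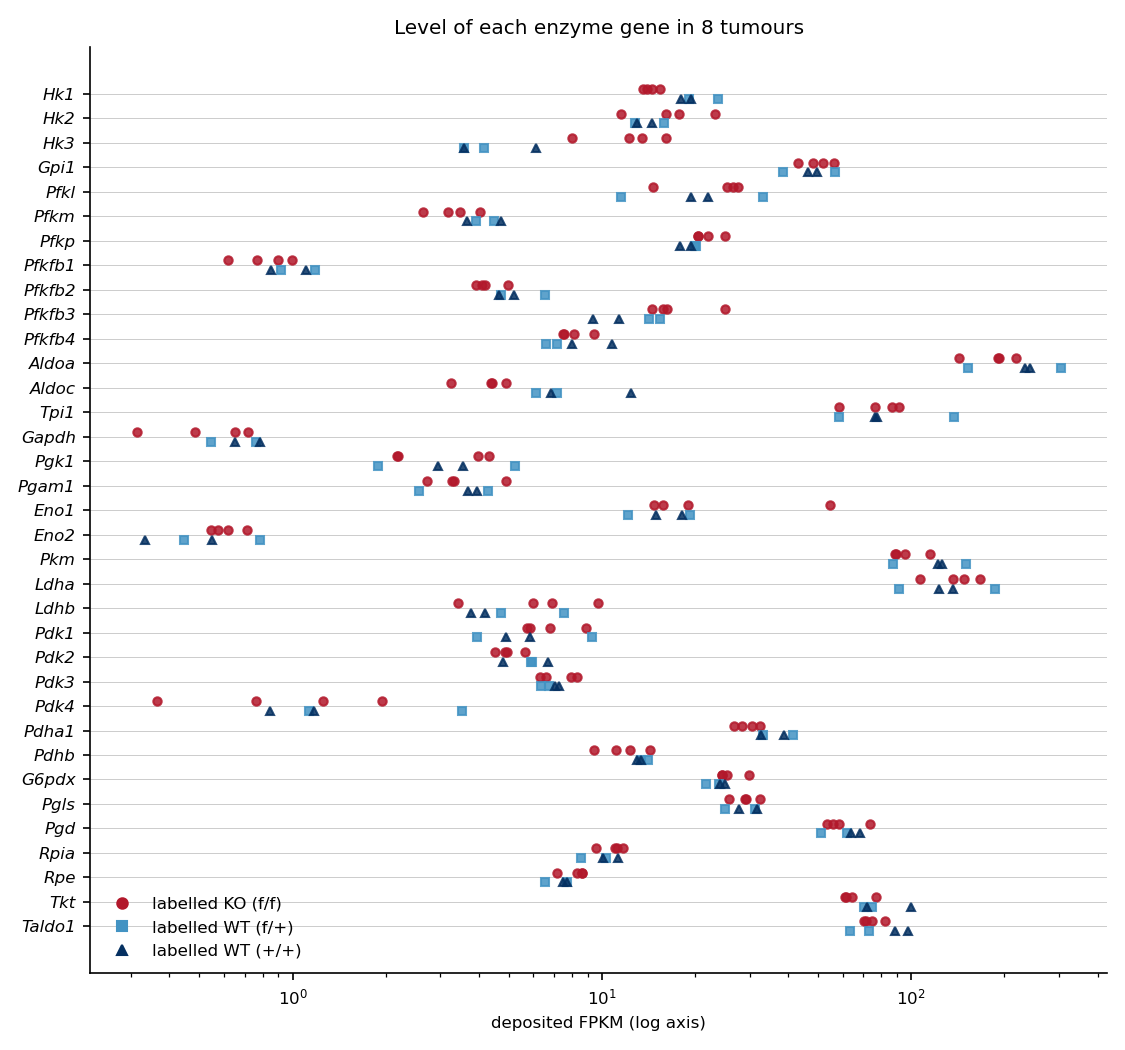
Deposited FPKM of the 35 genes (log axis) in each of 8 tumours, with 1 point per tumour: red circles are tumours labelled KO, light squares f/+ and dark triangles +/+ tumours labelled WT. Aldoa, Ldha and Pkm lie highest, Gapdh and Eno2 lie below 1 FPKM, and the red points of Hk3 all lie above the blue ones.

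The enzymes differed in how far the 8 tumours spread. For 21 of the 35 genes the highest tumour was less than 2-fold above the lowest, and 4 genes exceeded 3-fold: Pdk4 (8.08-fold), Hk3 (4.96-fold), Eno1 (4.93-fold) and Aldoc (3.41-fold). Among the 18 members from hexokinase to lactate dehydrogenase, WT2 was the highest tumour labelled WT for 12 and WT1 the lowest for 11. In the tumours labelled KO, KO4 was the lowest for 13 and KO3 the highest for 8. Their summed level was 981 FPKM in WT2 and 527 in WT1, with 727 in WT3 and 742 in WT4. In the tumours labelled KO it was 672, 752, 781 and 548 FPKM from KO1 to KO4. A list of HIF-1 and hypoxia response genes outside glycolysis took 0.223% of counts in WT2 and 0.167% in WT1, the highest and lowest of their label. Where the label was KO it took 0.192%, 0.180%, 0.174% and 0.141% from KO1 to KO4. By mean log2 CPM of the same list the values were 5.46, 5.44, 5.55 and 5.13. The place of KO3, with the highest summed level of its label, thus depended on the measure. A link between this list and the enzymes was not tested. The summed glycolytic level was 688 ± 104 FPKM in the tumours labelled KO and 744 ± 186 in those labelled WT (SD, n = 4), and the ranges overlapped. The order of these means turned with the scaling: divided by the TMM factors, the sums were 732 ± 110 and 697 ± 159. The 7 pentose phosphate enzymes summed to 275 ± 14.2 and 291 ± 35.3 FPKM, or 293 ± 10.1 and 274 ± 36.4 after the same division, and overlapped on both scales.

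Some members share long stretches with other genes, which bears on how their reads can be counted. After the low Gapdh, Pgk1 and Eno1 counts had been seen, every 50-base window of 1 transcript per member, the GENCODE M21 transcript paired with the counted RefSeq accession, was looked up in the annotated transcripts of all other genes. The searched and counted transcripts were within 10% of each other in length for 32 members, but not for Pfkfb2 (2849 bases searched, 7291 counted), Pfkfb3 (2216 and 5161) and Eno1 (2027 and 1762), so the search left part of Pfkfb2 and Pfkfb3 uncovered. For Gapdh 82.5% of windows also lay in another gene (222 genes, 209 of them pseudogenes), for Eno1 72.2% (9 genes, 8 pseudogenes) and for Pgk1 68.0% (5 genes, all pseudogenes). The next members were Pgam1 (phosphoglycerate mutase) at 41.5% and Pfkfb2 at 40.9%, and 14 members, Hk3, Tkt and Pgd among them, had none in the transcript searched. Of the called members, Rpe shared 19.3% with Kansl1l, Pfkp 17.1% with Pitrm1, G6pdx 10.7% with G6pd2 and Ikbkg, and Hk1 2.55% with Hk1os, while Hk3 and Aldoc shared none, nor did the part of Pfkfb3 that was searched. How reads with several genomic matches were treated is not given in the sources used here. Stretches of Gapdh and Eno1 are shown because they make the sharing visible. Each is 80 coding bases on the gene's own strand, from GENCODE M21 on GRCm38, with the 50 bases found in other genes in capitals: for Gapdh at chr6:125162883-125162962 (minus strand, exon 4 of 7, window found in 84 other genes) and for Eno1 at chr4:150245115-150245194 (plus strand, exon 7 of 12, 5 other genes).
Gapdh: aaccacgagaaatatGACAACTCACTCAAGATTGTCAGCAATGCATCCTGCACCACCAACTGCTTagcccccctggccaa
Eno1: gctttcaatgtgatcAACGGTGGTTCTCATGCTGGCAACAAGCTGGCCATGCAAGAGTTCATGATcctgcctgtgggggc

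Gapdh had between 17 and 39 counts per tumour, in libraries in which Aldoa was among the most abundant of all genes. Its level was 1.39 ± 0.422 CPM in the tumours labelled KO and 1.48 ± 0.224 in those labelled WT. Pgk1, the phosphoglycerate kinase of the next step, had 114 to 325 counts, and its mean level was 3.29 FPKM. These values are uncertain as measures of the genes, and Gapdh in particular cannot be read here as a reference gene.

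**Figure D2:**
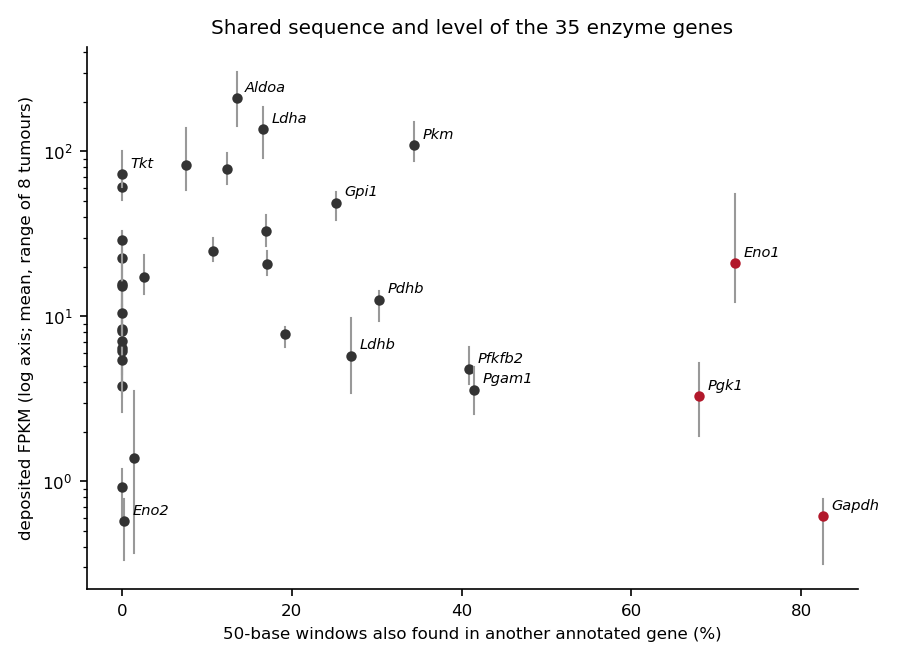
Share of each member's 50-base transcript windows that also occur in another annotated gene (percent, horizontal) against its mean deposited FPKM (log axis, vertical, bar from lowest to highest of 8 tumours). The 3 genes above 50% (red) are Gapdh at 82.5%, Eno1 at 72.2% and Pgk1 at 68.0%, and no relation was tested.

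The labelled groups were compared by edgeR's quasi-likelihood test across all genes, with Benjamini-Hochberg adjustment over all 14728. At an adjusted p under 0.05, 5 members rose and 2 fell, 7 of 35, where 21.8% of all genes tested passed (11.1% higher and 10.8% lower). The share of members was thus near that of all genes. Hk3, Pfkp, Pfkfb3, G6pdx and Rpe rose, and Hk1 and Aldoc fell, while 28 members did not pass. Groups did not overlap for the same number of members, 7 of 35, against 25.5% of all genes. The median log2 fold change was 0.15 over the members and 0.011 over all genes tested, with 22 members above 0 and 13 below. DESeq2 called the same 7 members, where 28.4% of all genes passed. With RLE size factors in place of TMM, 4 members were higher and 2 lower, where 10.7% of all genes were higher and 10.9% lower. Pfkfb3 was no longer called. Scaled by library totals alone, 1 member was called higher and 2 lower, where 27.2% of all genes passed (6.11% higher and 21.1% lower), and the median of all genes moved to -0.17. When the epithelial list set the scale, that median moved to 0.83 and 31 members were called higher and 0 lower, where 72.5% of all genes were higher and 0.781% lower. Relative to the median of all genes, Hk3 stood at 1.69 under the first of these scalings and at 1.70 under the other. A change of scaling shifts all genes by nearly the same amount, so this agreement is not a check of Hk3. In bulk RNA, fewer cells of a type and less RNA per cell cannot be told apart.

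**Figure D3:**
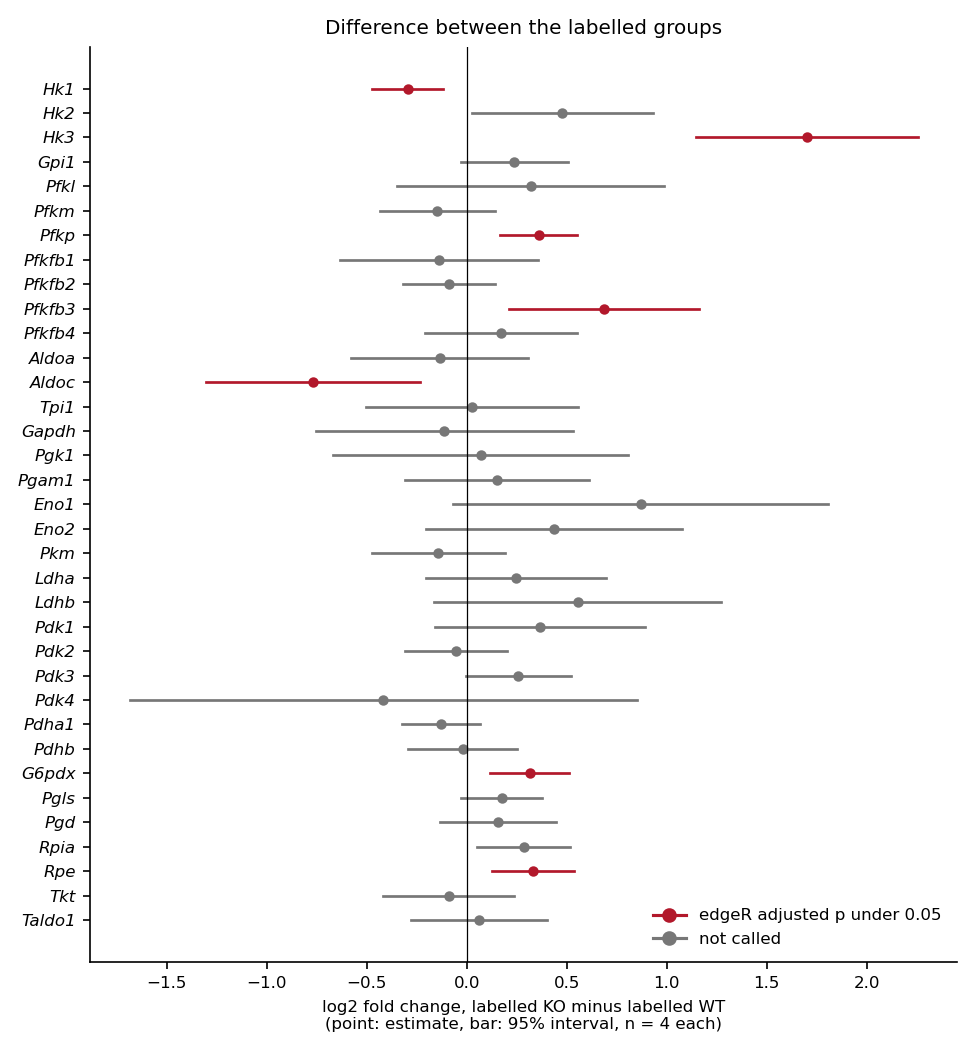
Log2 fold change of each of the 35 genes, tumours labelled KO minus tumours labelled WT, from the edgeR fit over all genes (point: estimate, bar: 95% interval, n = 4 tumours per label; red: adjusted p under 0.05). Hk3 stands farthest from 0 at 1.70, 5 red genes lie above 0 and 2 below.

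The hexokinases phosphorylate glucose and trap it in the cell. Hk3, a hexokinase known mainly from myeloid blood cells (chr13:55005985-55021385, minus strand, in the mm10 coordinates of the files), was at 73.5, 91.6, 73.3 and 45.7 CPM in KO1 to KO4 and at 18.6, 19.3, 18.5 and 31.1 CPM in WT1 to WT4. The lowest KO value was above the highest WT value. The means were 71.0 ± 18.9 and 21.9 ± 6.16 CPM, a log2 fold change of 1.70 ± 0.24 (edgeR adjusted p = 0.00451). Macrophage markers moved the same way between labels, and WT4, the highest of its label in Hk3, was also the highest of its label in the macrophage list at 1.96% of counts. KO4, the lowest of its label in Hk3, was at 2.97%, against 2.91%, 3.11% and 2.54% in KO1, KO2 and KO3. By mean log2 CPM of the list KO4 lay below KO1 and KO2 (9.88 against 9.90 in each). A link between this list and Hk3 was not tested. With 1 tumour left out at a time the Hk3 call held in 8 of 8 fits (adjusted p 0.00387 to 0.0167).

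Hk1, the widely expressed hexokinase (chr10:62268855-62340421, minus strand), was at 112, 109, 109 and 121 CPM in KO1 to KO4 and at 136, 155, 136 and 126 CPM in WT1 to WT4. The groups did not overlap, and the log2 fold change was -0.30 ± 0.078 (edgeR adjusted p = 0.0291), which turned to 0.53 under epithelial scaling. The Hk1 call held in the fits without KO4 or WT4 (adjusted p 0.0298 and 0.0224) and was lost without KO1, KO2, KO3, WT1, WT2 or WT3 (0.0561 to 0.0874). Hk2, the inducible hexokinase of muscle and many tumours, was at 255, 186, 163 and 121 CPM in KO1 to KO4 and at 122, 139, 122 and 138 CPM in WT1 to WT4. KO1, KO2 and KO3 lay above all controls and KO4 lay below them, and Hk2 did not pass the test (log2 fold change 0.48 ± 0.20, edgeR adjusted p = 0.120). It passed without KO4 (0.62, adjusted p = 0.0332) and was at 0.25 without KO1.

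Shares within an enzyme family do not depend on how libraries are scaled, so they were taken from the FPKM of each tumour. Hk1 made up 27.8%, 29.2%, 32.9% and 44.1% of hexokinase FPKM in KO1 to KO4 and 53.8%, 54.1%, 54.0% and 46.5% in WT1 to WT4. Hk3 made up 24.9%, 33.6%, 30.5% and 22.9% in the former and 10.1%, 9.47%, 9.98% and 15.8% in the latter. Neither overlapped between labels. Hk2 overlapped, at 38.5 ± 6.18% and 36.5 ± 0.766% (SD, n = 4). For Hk1 and Hk3 the exact two-sided permutation p was 0.0286, the smallest that 4 against 4 tumours allow, and 0.162 after adjustment over 17 shares in 7 families. At that adjustment 0 of 17 shares passed, and 3 of 17 had an unadjusted exact permutation p under 0.05. A share could pass it only if most of the 17 had the smallest possible p. The adjustment thus could not have called 3 shares alone, and its outcome does not show that shares were unchanged. Shares of a family sum to a whole, so the Hk1 and Hk3 differences are not independent.

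**Figure D4:**
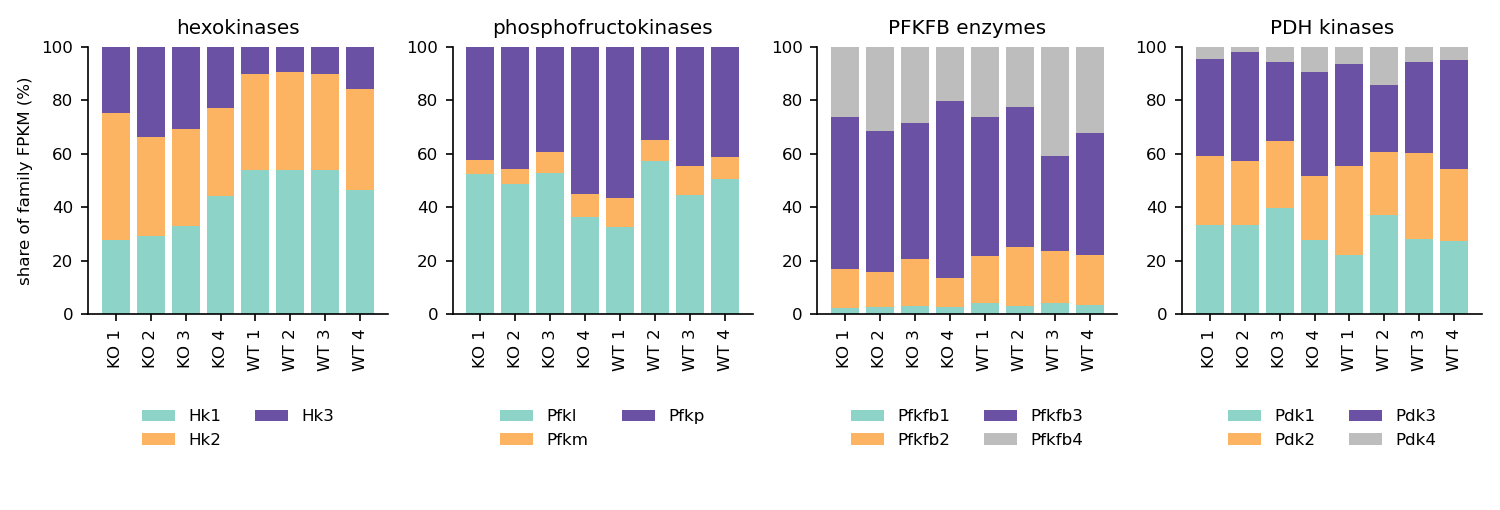
Share of each isoenzyme in the summed FPKM of its family (percent) in each tumour, for hexokinases, phosphofructokinases, PFKFB enzymes and PDH kinases. Hk3 takes 22.9% to 33.6% where the label is KO and 9.47% to 15.8% where it is WT, while the isoenzymes of the other 3 families overlap between labels.

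Gpi1, which converts glucose 6-phosphate to fructose 6-phosphate, lay between 236 and 306 CPM in the tumours labelled KO and between 192 and 260 in those labelled WT, and did not pass the test (log2 fold change 0.24 ± 0.12, edgeR adjusted p = 0.183).

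Phosphofructokinase commits sugar to glycolysis and is built from liver (Pfkl), muscle (Pfkm) and platelet (Pfkp) subunits. Pfkp (chr13:6579874-6648771, minus strand) was at 164, 191, 151 and 169 CPM in KO1 to KO4 and at 139, 129, 134 and 124 CPM in WT1 to WT4. No KO tumour fell within the WT range, and Pfkp rose by a small margin (log2 fold change 0.36 ± 0.085, edgeR adjusted p = 0.0192). Of the fits that leave out 1 tumour, the one without KO2 lost the call (adjusted p = 0.0504). Over all 20 alternatives Pfkp passed in 12, and scaled by library totals its log2 fold change was 0.18 (adjusted p = 0.160). Pfkl was at 188, 187, 186 and 103 CPM in KO1 to KO4 and at 74.1, 195, 123 and 140 CPM in WT1 to WT4, so KO4 stood apart from its label and the groups overlapped. Pfkm was low in every tumour, between 15.2 and 22.9 CPM. Pfkl made up 47.6 ± 7.63% and 46.2 ± 10.5% of phosphofructokinase FPKM in the tumours labelled KO and WT, and Pfkp 45.5 ± 6.72% and 44.3 ± 9.04%.

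The PFKFB enzymes make and break fructose 2,6-bisphosphate, an activator of phosphofructokinase. Pfkfb3, whose kinase activity dominates and which is induced by inflammatory signals and low oxygen (chr2:11471431-11502090, minus strand), was at 158, 145, 129 and 234 CPM in KO1 to KO4 and at 122, 120, 78.3 and 94.5 CPM in WT1 to WT4. It was the highest in KO4, and the groups did not overlap. Its rise passed the test narrowly (166 ± 46.4 against 103 ± 20.8 CPM, log2 fold change 0.69 ± 0.21, edgeR adjusted p = 0.0467). The Pfkfb3 call held without KO3 (0.0420) and was lost without KO1, KO2, KO4, WT1, WT2, WT3 or WT4 (adjusted p 0.0558 to 0.11). Pfkfb3 passed in 3 of 20 alternatives, and RLE size factors gave an adjusted p of 0.0521. Pfkfb4, another form induced by low oxygen, was at 50.2, 59.9, 49.8 and 48.4 CPM in KO1 to KO4. In WT1 to WT4 Pfkfb4 was at 41.8, 35.1, 62.1 and 46.0 CPM. Pfkfb2, the heart form, lay between 50.9 and 67.6 CPM over all 8 tumours and Pfkfb1 between 2.13 and 3.54, and none of these 3 passed the test. Pfkfb3 made up 56.8 ± 6.87% of PFKFB FPKM in the tumours labelled KO and 46.4 ± 7.95% in those labelled WT, with overlap (exact permutation p = 0.114, adjusted 0.324).

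Aldolase splits fructose 1,6-bisphosphate, and Aldoa carried nearly all of it. Aldoa was at 578, 542, 599 and 407 CPM in KO1 to KO4 and at 398, 725, 619 and 595 CPM in WT1 to WT4, with overlap (log2 fold change -0.14 ± 0.20, edgeR adjusted p = 0.655). Aldoc, the brain form (chr11:78323073-78327778, plus strand), was at 23.5, 22.2, 24.0 and 16.6 CPM in KO1 to KO4 and at 28.4, 30.3, 56.7 and 31.5 CPM in WT1 to WT4. It was lower in every tumour labelled KO and highest in WT3. Its log2 fold change was -0.77 ± 0.24 (edgeR adjusted p = 0.0479) and turned to 0.073 under epithelial scaling. Without WT3 it was -0.48. The Aldoc call held without WT1 (adjusted p = 0.0490) and was lost without KO1, KO2, KO3, KO4, WT2, WT3 or WT4 (0.0526 to 0.106). As a share of aldolase FPKM, Aldoc ranged over 2.19% to 2.25% under the KO label and over 2.29% to 4.88% under the WT label, so WT2 at 2.29% lay just above the KO range (exact permutation p = 0.0286, adjusted 0.162). The share was lower by 1.24 percentage points under the KO label, and by 0.775 without WT3. Tpi1, which interconverts the products of aldolase, was at 349 CPM in WT2 and between 162 and 268 in the other 7 tumours.

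The later steps yield ATP and pyruvate. Pkm was at 434, 439, 509 and 410 CPM in KO1 to KO4 and at 368, 578, 507 and 525 CPM in WT1 to WT4, with overlap (log2 fold change -0.14 ± 0.15, edgeR adjusted p = 0.524). The counts hold 1 transcript per gene, so the M1 and M2 splice forms of Pkm were not told apart. Pgam1 lay between 8.13 and 16.5 CPM over all tumours. It shares 41.5% of its windows with 4 pseudogenes, so its level, at a mean of 3.59 FPKM, is also uncertain. Eno2 was at 3.71, 3.48, 3.12 and 2.76 CPM in KO1 to KO4. In WT1 to WT4 Eno2 was at 2.24, 3.45, 1.39 and 2.59 CPM. Neither Pgam1 nor Eno2 passed.

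Eno1, the main enolase (chr4:150237197-150248873, plus strand), stood apart in 1 tumour. It was at 55.7, 184, 61.4 and 49.8 CPM in KO1 to KO4 and at 37.2, 54.1, 45.2 and 55.1 CPM in WT1 to WT4. KO2 had 2693 counts against 715 to 1161 in the other 7 tumours, and the comparison did not pass (log2 fold change 0.87 ± 0.41, edgeR adjusted p = 0.165). Without KO2 the log2 fold change was 0.22 (adjusted p = 0.378). The table also lists Eno1b, an entry with 2 copies that overlaps Eno1 on chromosome 4, and the 2 entries were compared after their values had been seen. The Eno1b entry exceeded Eno1 by 35 counts in KO2, which was 1.28% of the entry, and by 262 to 428 counts (26.3% to 28.7%) in the other 7 tumours. The Eno1b entry itself was also highest in KO2, at 2728 counts against 977 to 1584 elsewhere.

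**Figure D5:**
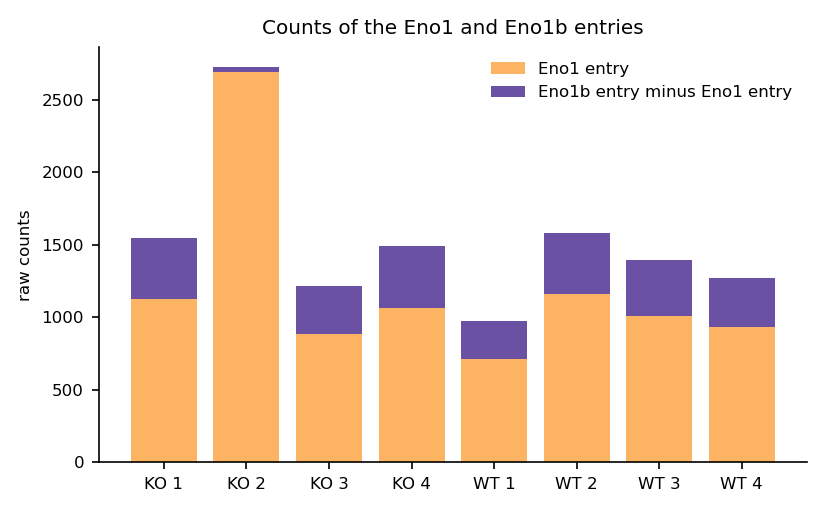
Raw counts of the Eno1 entry (orange) and the counts by which the Eno1b entry exceeds it (purple) in each tumour; the bar's full height is the Eno1b entry. KO2 has 2693 Eno1 counts and an excess of 35, and the other 7 tumours have 715 to 1161 and an excess of 262 to 428.

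Lactate dehydrogenase was almost wholly Ldha. Ldha was at 442, 456, 496 and 330 CPM in KO1 to KO4 and at 257, 479, 341 and 379 CPM in WT1 to WT4, with overlap (log2 fold change 0.24 ± 0.20, edgeR adjusted p = 0.413). Ldhb, the heart form, was at 14.1, 7.64, 14.8 and 21.8 CPM in KO1 to KO4 and at 9.58, 14.2, 7.57 and 8.42 CPM in WT1 to WT4. It made up 2.26% to 8.33% of lactate dehydrogenase FPKM, highest in KO4, the tumour with the lowest Ldha of its label.

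The pyruvate dehydrogenase kinases switch the complex off. Pdk1, a target of HIF-1, was at 60.4, 66.8, 84.3 and 56.5 CPM in KO1 to KO4 and at 35.5, 76.2, 52.2 and 43.6 CPM in WT1 to WT4. Pdk3 was at 25.1, 31.3, 24.0 and 30.1 CPM in KO1 to KO4 and at 23.4, 20.1, 24.1 and 24.9 CPM in WT1 to WT4. The groups overlapped for both. By mean FPKM over the 8 tumours Pdk3 and Pdk1 were the most abundant forms, with Pdk1 and Pdk3 at 33.6 ± 4.85% and 36.3 ± 4.90% of kinase FPKM in the tumours labelled KO and 28.7 ± 6.11% and 34.6 ± 6.77% in those labelled WT, where Pdk2 held 29.0 ± 4.53%. Pdk2 lay between 18.6 and 25.8 CPM over all tumours. Pdk4, the kinase induced by fasting, was the most uneven member, from 2.39 CPM in KO2 to 19.3 in WT2. The E1 subunits of the complex, Pdha1 at 152 to 190 CPM and Pdhb at 27.8 to 40.2, did not pass, and neither did any of the 4 kinases. Pdk1 (log2 fold change 0.37, edgeR adjusted p = 0.287) passed without WT2, at 0.61 (adjusted p = 0.0471).

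In the oxidative arm, G6pdx is the glucose 6-phosphate dehydrogenase of the X chromosome and the entry step (chrX:74409486-74429161, minus strand). It was at 127, 148, 117 and 126 CPM in KO1 to KO4 and at 98.2, 99.3, 111 and 108 CPM in WT1 to WT4, with no overlap. The rise was small (log2 fold change 0.31 ± 0.087, edgeR adjusted p = 0.0341). The G6pdx call held without KO3 or WT4 (adjusted p 0.0342 and, just under the limit, 0.04999) and was lost without KO1, KO2, KO4, WT1, WT2 or WT3 (0.0521 to 0.0845). Pgls, the lactonase of the next step, lay between 45.7 and 52.8 CPM in the tumours labelled KO and between 38.5 and 49.0 in those labelled WT. Pgd lay between 226 and 310 and between 196 and 259 CPM. Neither passed (edgeR adjusted p = 0.195 and 0.423).

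In the non-oxidative arm, Rpe, the ribulose phosphate epimerase (chr1:66700831-66719805, plus strand), was at 46.3, 42.3, 42.4 and 36.7 CPM in KO1 to KO4 and at 30.5, 32.9, 35.4 and 34.6 CPM in WT1 to WT4. The groups did not overlap, and Rpe rose (log2 fold change 0.33 ± 0.091, edgeR adjusted p = 0.0328). The Rpe call held without KO4 or WT4 (adjusted p 0.0230 and 0.0475) and was lost without KO1, KO2, KO3, WT1, WT2 or WT3 (0.0541 to 0.0948). Rpia, the ribose phosphate isomerase, was between 32.2 and 38.7 CPM in the tumours labelled KO and between 26.3 and 34.2 in those labelled WT, and missed the threshold (log2 fold change 0.28 ± 0.10, edgeR adjusted p = 0.0801). Tkt was at 392, 377, 378 and 472 CPM in KO1 to KO4 and at 394, 381, 552 and 398 CPM in WT1 to WT4. Taldo1 was at 179, 180, 166 and 199 CPM in KO1 to KO4 and at 161, 128, 212 and 193 CPM in WT1 to WT4. These 2 abundant enzymes overlapped between labels, and both were highest in WT3 and, among the tumours labelled KO, in KO4.

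The 3 Lifr genotypes were also fitted together over 15284 genes, and the comparisons with f/+ and with +/+ tumours share the f/f tumours. Against f/+ tumours 3 members passed, where 13.3% of all genes did (6.73% higher and 6.6% lower in f/f): Hk3 (log2 fold change 1.90 ± 0.31) and G6pdx (0.39 ± 0.11) were higher in f/f and Hk1 (-0.36 ± 0.090) lower. Against +/+ tumours 2 members passed, where 6.79% of all genes did (3.13% higher and 3.66% lower): Hk3 (1.52 ± 0.31) was higher and Aldoc (-1.03 ± 0.24) lower. Between f/+ and +/+ tumours 0 of 35 members passed in edgeR and 0 in DESeq2, where 0.00654% of all genes passed in edgeR, and 2 of 35 members had an unadjusted p under 0.05, where 5.12% of all genes did. Those were Pfkfb4 (-0.49 ± 0.18, f/+ minus +/+) and Taldo1 (-0.49 ± 0.14). Each control genotype has 2 tumours.

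Of 39 tested genes that neighbour the pathway (other glycolytic, gluconeogenic, pyruvate and pentose phosphate genes), 1 rose and 4 fell, with a median log2 fold change of -0.013, where 11.1% of all genes tested rose and 10.8% fell. Prps2, which makes phosphoribosyl pyrophosphate from ribose phosphate, rose (log2 fold change 0.39 ± 0.11, edgeR adjusted p = 0.0334). Ldhd, the D-lactate dehydrogenase, fell from 25.1 ± 8.38 to 8.90 ± 1.68 CPM (-1.50 ± 0.26, edgeR adjusted p = 0.00694). Pdp1, the phosphatase that turns pyruvate dehydrogenase on, fell (-0.46 ± 0.096), as did Bpgm, the bisphosphoglycerate mutase (-0.70 ± 0.19), and Pgam5 (-0.29 ± 0.073), a mitochondrial phosphatase. Of 21 HIF-1 and hypoxia response genes outside glycolysis, 1 rose and 3 fell, with a median of -0.20, against the same 11.1% and 10.8%. Hif1a, which encodes the oxygen-regulated subunit, was at 605 ± 178 against 346 ± 70.9 CPM (0.81 ± 0.23, edgeR adjusted p = 0.0363), while P4ha2, a collagen prolyl hydroxylase (-0.75 ± 0.14), Ndrg1 (-0.71 ± 0.15) and Ddit4, an inhibitor of mTOR signalling (-0.65 ± 0.13), fell. Of 12 regulators of the pathway, 2 rose and 0 fell: Hif1a and Mlxipl, the carbohydrate response factor ChREBP (1.05 ± 0.29, edgeR adjusted p = 0.0317). The median of all genes tested was 0.011, against 0.20 for the regulators.

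The transcript kept for a gene was the same in the count table and the FPKM table for 24 members and differed for 11 (31.4%, against 15.5% of all genes): Hk1, Hk3, Pfkm, Pfkfb2, Pfkfb3, Aldoa, Gapdh, Eno2, Ldha, Ldhb and Pgls. For all 11 the transcript in the FPKM table was the shorter one. For Pfkfb2 the lengths were 7291 and 2367 bases, and for Hk3 they were 3198 and 2873 bases. With counts per kilobase of the count table's transcript in place of FPKM, the Hk1, Hk3 and Aldoc shares still did not overlap between labels.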

How the data were processed

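RNA sequencing of 8 tumours, 1 library each, gave the deposited tables. Per the file headers, the authors used HOMER to make raw counts, as whole tags over the exons of RefSeq transcripts on mm10 with 1 transcript kept per gene, and the deposited FPKM values come from the same program. Named without a role in the submitters' processing notes are edgeR 3.6.8, STAR 2.4.0k and FastQC 0.11.2. Counts were 73.5% to 80.2% of the totals in the headers. Library strandedness is not given in the sources used here, so antisense partners cannot be told apart.

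For the counts, edgeR 4.0.16 under R 4.3.3 was the test (TMM, filterByExpr with a minimum count of 10 and a minimum total of 15, glmQLFit and glmQLFTest), with limma 3.58.1 and DESeq2 1.42.0 as alternatives, and p-values were Benjamini-Hochberg adjusted over all genes. The test was also run on counts simulated under its own model, which checks the code and not how well the model suits these tumours. Isoenzyme shares were compared by exact two-sided permutation over 70 assignments. Alternatives (20 for the fold changes, 12 for the shares) covered scaling, filter, tool, table, controls and left-out tumours.

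All 35 members are named. Full values were given for called members with an absolute log2 fold change over 0.5 and the 2 most abundant isoenzymes of each family, with other called members and a few more added after their values were seen, and from each pathway list up to 4 called genes per direction. The members, lists and rules were chosen with earlier results of these data known. The 50-base window search (against GENCODE M21) and the Eno1b comparison were added after the counts were seen. No column of other samples was present. Some items, an engineered allele and a sequence among them, are not reported here.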

Additional observations from a re-analysis of the deposited data

Results flagged for a closer look

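Within each label of 4 tumours, a tumour was picked out where its gap to the nearest other was too large a part of the group's range by Dixon's 95% limit for 4 samples. Of 106 groups checked, 11 held such a tumour, or 10.4%, where chance gives about 1 in 20. The groups are not independent, since shares of a family sum to a whole.

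In KO2, Eno1 was at 184 CPM against 49.8 to 61.4 in the other tumours labelled KO, the share of the Eno1b entry outside Eno1 was 1.28% against 27.4% to 28.7%, and Pfkfb4 was at 59.9 CPM against 48.4 to 50.2. In KO4, Pfkl was at 103.3 CPM against 186 to 188, and Tkt was at 472 CPM against 377 to 392.

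In WT4, Hk3 was at 31.1 CPM against 18.5 to 19.3 in the other tumours labelled WT, with an Hk3 share of 15.8% of hexokinase FPKM against 9.47% to 10.1% and an Hk1 share of 46.5% against 53.8% to 54.1%. In WT3, Aldoc was at 56.7 CPM against 28.4 to 31.5 and Tkt at 552 CPM against 381 to 398. In WT2, Pdk4 was at 19.3 CPM against 5.01 to 6.95.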

How the results depend on the processing

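Hk3 was called in 20 of 20 alternatives (adjusted p at most 0.0432), with a log2 fold change of 1.31 to 1.92, or 2.53 under epithelial scaling. Pfkp passed in 12, Hk1 in 11 (1 of them in the other direction), Aldoc in 7, G6pdx and Rpe in 6 and Pfkfb3 in 3. The main comparison called 3216 genes, with 5 members higher and 2 lower. Leaving out 1 tumour gave 1755 (without KO2) to 3241 genes, 1 to 4 members higher and 0 to 1 lower. Library totals moved the median of all genes to -0.17 (1 member higher, 2 lower) and epithelial scaling moved it to 0.83 (10796 genes, 31 members higher, 0 lower, where 72.5% of all genes were higher). Relative to those medians Hk3 stood at 1.69 and 1.70, Hk1 at -0.31 and -0.30 and Aldoc at -0.78 and -0.76. Each scaling shifts all genes by nearly the same amount, so this agreement is not a check of these genes. Without the tumour of each label richest in acinar RNA (KO1, WT2) 1892 genes were called, with 1 member higher and 0 lower. Of all genes tested, 6.33% were then higher and 6.58% lower. Without the tumours with Y-chromosome transcripts (KO3, WT2) there were 1870 (6.44% and 6.22%), 2 and 0. With f/+ controls alone there were 1926 (6.75% and 6.01%), 1 and 1, and with +/+ controls alone 1106 (3.41% and 3.93%), 1 and 0. No filter on low counts gave 4 members higher and 1 lower (7.73% and 7.41% of all genes). RLE size factors gave 4 and 2 (10.7% and 10.9% of all genes). Limma on FPKM gave 1 and 2 under each of its 3 settings. At a pseudocount of 1 with its filter, the median of all genes was -0.13, with 6.78% of genes higher and 21.4% lower. At a pseudocount of 0.1 these shares were 6.80% and 21.5%, and at 1 without the filter 3.98% and 13.4%. DESeq2 called the same 7 members (28.4% of all genes). Between f/+ and +/+ tumours 1 gene passed, 2 when only the tumours labelled WT were fitted and 58 with DESeq2. Fewer tumours leave less power, and the cause of the other shifts was not tested.

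Among fold changes 20 members changed sign in some alternative, 2 of them called in the main comparison (Hk1, Aldoc, both under epithelial scaling alone). Epithelial scaling gave Hk1 0.53, Pfkm 0.68, Pfkfb1 0.67, Pfkfb2 0.74, Aldoa 0.71, Aldoc 0.073, Gapdh 0.74, Pkm 0.69, Pdk2 0.77, Pdk4 0.41, Pdha1 0.69, Pdhb 0.79 and Tkt 0.72. Library totals gave Pfkfb4 -0.0027, Tpi1 -0.16, Pgk1 -0.11, Pgam1 -0.028, Pgls -0.0018, Pgd -0.023 and Taldo1 -0.11. In limma on log2(FPKM + 1), with or without a filter at a mean of 0.5, Tpi1 was -0.11, Pgk1 -0.070, Pgam1 -0.023, Pgd -0.025 and Taldo1 -0.091, and with a pseudocount of 0.1 they were -0.11, -0.085, -0.030, -0.025 and -0.091. With +/+ controls alone, Pfkfb4 was -0.054, Pdk4 0.25 and Taldo1 -0.16, and share differences were 0.426 (Eno2), -1.12 (Pdk3) and 0.123 (Pdk4) percentage points. With f/+ controls alone, Tpi1 was -0.11 and Tkt 0.062, and shares -0.120 (Pfkp) and 2.22 (Pfkfb4). Without KO1 and WT2, Pfkfb2 was 0.026, Gapdh 0.10, Pdk4 0.31, Pdhb 0.026 and Taldo1 -0.051, and shares -1.01 (Hk2), -0.730 (Pfkp), -1.34 (Pdk3) and 0.0469 (Pdk4). Without KO3 and WT2, Pdk4 was 0.14 and Taldo1 -0.017.

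Leaving out 1 tumour gave ranges that crossed 0 for Gapdh (-0.24 to 0.058), Pdhb (-0.14 to 0.045), Pdk2 (-0.13 to 0.026), Pdk4 (-0.89 to 0.19), Pfkfb2 (-0.14 to 0.0013), Pgam1 (-0.013 to 0.25), Pgk1 (-0.12 to 0.31), Taldo1 (-0.057 to 0.17), Tkt (-0.18 to 0.049) and Tpi1 (-0.11 to 0.29), none of them called. Share differences did so for Eno2 (-0.599 to 0.468), Hk2 (-0.959 to 3.84), Ldhb (-0.219 to 1.80), Pdk3 (-1.36 to 3.98), Pfkl (-3.23 to 5.02) and Pfkp (-1.85 to 5.32). The Hk1, Hk3 and Aldoc shares did not overlap in 12 of 12 alternatives, but only counts per kilobase in place of FPKM could have shown overlap. The other alternatives for the shares only left out tumours. Groups that do not overlap with all tumours included cannot overlap in a subset, so those outcomes are no check of the shares. No paired analysis was possible because replicate numbers only follow the listed order. Gapdh had 17 to 39 counts per tumour, which limits its precision.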
